A study of Mus musculus with 9 samples.

Results

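The genes described here encode 10 integrin chains: Itgal, Itgam, Itgax and Itgb2 of the leukocyte integrins, Itga4, Itga2 and Itgb1 of the beta1 integrins, Itgb7 with its partner Itgae, and Itgav. They were picked by gene name from the deposited array table and not by a threshold on their levels. Earlier results of these data were known when they were picked. They are 10 of the 18193 genes that a single-symbol probe set represented. All 10 passed the filter on low levels, as did 10916 genes in all, and the 10 genes had 25 such probe sets between them. The cells were interferon-producing killer dendritic cells (IKDC), natural killer cells (NK) and conventional dendritic cells (CDC). All came by fresh cell sorting from BALB/c mice that were naive and 6 to 8 weeks old, and total RNA was measured on 9 Affymetrix arrays. Each cell type had 1 array from lymph node and 2 arrays from spleen. No mouse was treated or carried a named mutation. The labels give neither the surface markers of the sort nor the number of animals, and whether CD11c, CD11b or CD49b was part of a gate is not stated in them.

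An integrin is a surface receptor made of 1 alpha and 1 beta chain, and the pair decides which ligand the cell can hold. The beta2 chain pairs with CD11a, CD11b or CD11c and binds intercellular adhesion molecules and complement fragments, the beta1 chain pairs with many alpha chains that bind matrix or vascular ligands, and the beta7 chain pairs with the alpha 4 chain for homing to gut vessels or with CD103 for binding E-cadherin on epithelium. In the mouse, CD11c is the customary marker of dendritic cells, CD11b appears on NK as they mature, CD49b is used to identify NK, and CD103 marks subsets of dendritic cells and intraepithelial lymphocytes.

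In these data 3 of the 10 chains passed the test between IKDC and CDC, where 13.3% of all genes did, and the same 3 passed between NK and CDC, where 17.7% did. Itgal and Itga2 were higher in IKDC and in NK than in CDC, and Itgae was lower. Itgae was also the single chain that differed between organs, being 7.62-fold higher in lymph node than in spleen cells, where 0.376% of all genes passed. No chain passed the test between IKDC and NK. Itgam and Itgax had the widest separations there, and both also varied most between arrays of the same group. With the array number as a block, Itgam, Itgax and Itga4 passed as well between NK and CDC, where 27.5% of all genes did. Itgb2, Itgb7, Itgb1 and Itgav passed in none of the comparisons of cell types, with or without the block.

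**Figure D1:**
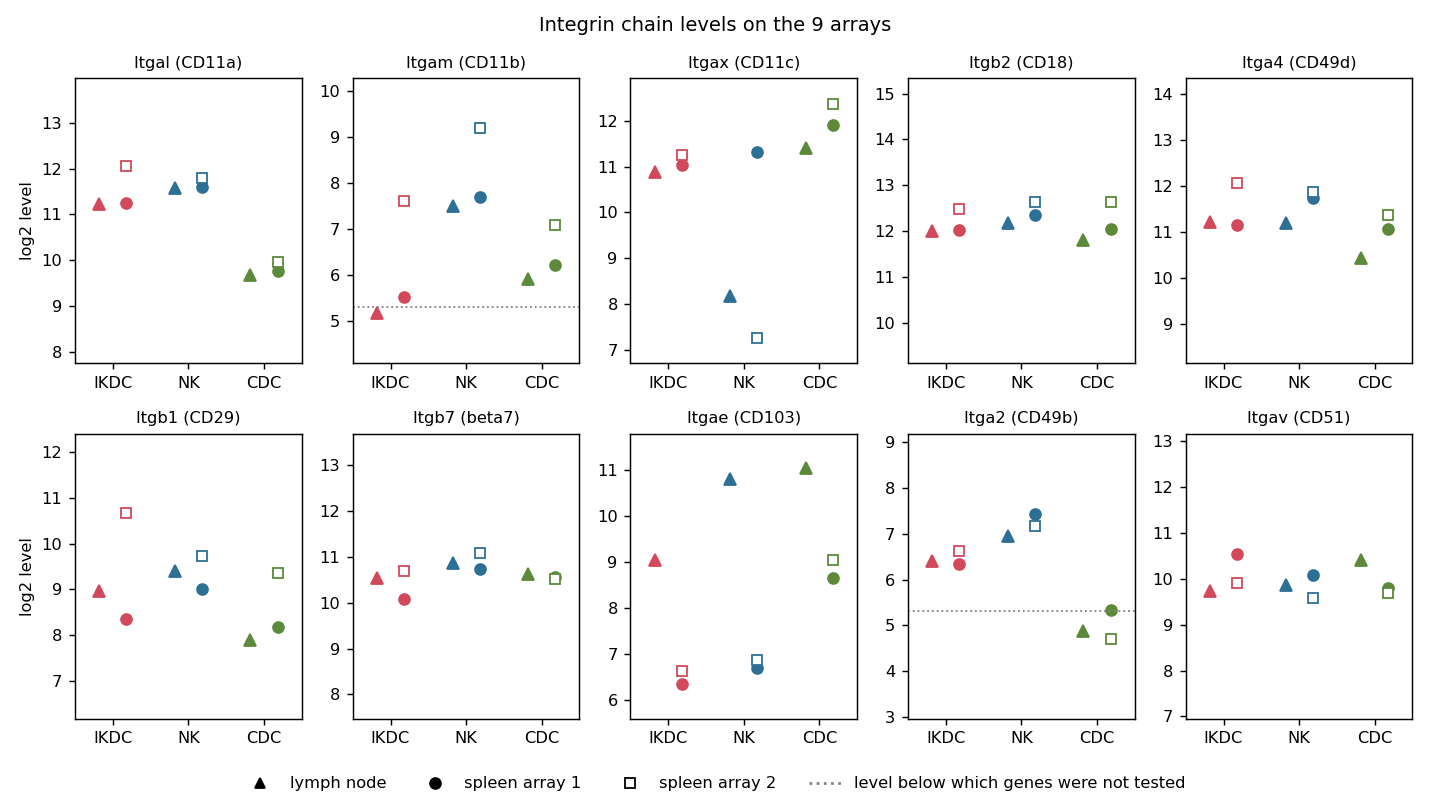
Level of each integrin chain on each of the 9 arrays, as log2 normalized intensity, with 1 point per array and 1 panel per gene. Every panel spans the same number of log2 units and is centred on its own gene. Itgal and Itga2 lie lower on all 3 CDC arrays, Itgae lies highest on the lymph node array of each cell type, and Itgax on spleen NK array 1 (11.32) lies apart from the other NK arrays.

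Levels are log2 values of quantile-normalized intensity, differences are on the same log2 scale with the standard error (SE) of limma, and adjusted p-values are Benjamini-Hochberg values over the 10916 genes, with a threshold of 0.05. The labels do not say which arrays came from separate animals, and the p-values measure only the spread between these samples. The cell labels were set against marker genes. Summed over the 7 NK markers on the array, the linear level was 18880 to 24810 on IKDC arrays, 24320 to 34390 on NK arrays and 860 to 1235 on CDC arrays. Summed over 9 dendritic cell markers, it was 9586 in lymph node and 6621 and 3115 in spleen IKDC, 1736 in lymph node and 3577 and 685.3 in spleen NK, and 25390 to 30730 in CDC. A linear sum is set mostly by the genes of highest level. H2-Aa, H2-Ab1 and Cd74 were at 8.79 to 12.01 on IKDC arrays. Flt3, Zbtb46, Cd86, Ciita, Batf3 and Xcr1 were there at 4.23 to 6.70, apart from Flt3 at 8.69 in lymph node. On CDC arrays the latter genes were at 7.91 to 11.25. Some arrays stood apart. Spleen arrays 1 of all 3 cell types had the X-inactivation transcript Xist at 6.02 to 6.36, against 11.43 to 12.48 on the other 6 arrays, and the Y-linked Eif2s3y at 8.84 to 9.40, against 2.76 to 4.28. Spleen arrays 1 thus had the transcripts of male mice and all other arrays those of female mice. The spread within each spleen pair includes this difference, and so does every comparison of the lymph node arrays with both spleen arrays. The lymph node IKDC array had a summed level of 14000 over 8 plasmacytoid dendritic cell markers, against 820.3 to 3385 on the other arrays. Spleen NK array 1 carried the class II chain H2-Aa at 10.89, against 6.62 on spleen NK array 2. Spleen NK array 2 had the highest sums of basophil and mast cell markers (2045) and of erythroid and platelet markers (1448). In bulk samples such as these, fewer cells of a type and less RNA per cell cannot be told apart.

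Itgal encodes CD11a, the alpha chain of the integrin LFA-1 that lymphocytes use to grip target cells and vessel walls. Its level was 11.23 in lymph node and 11.25 and 12.05 in spleen IKDC, 11.58 in lymph node and 11.60 and 11.80 in spleen NK, and 9.68 in lymph node and 9.77 and 9.97 in spleen CDC. Every IKDC and NK array was above every CDC array, and IKDC and NK overlapped. Of all genes tested, 15.8% had every IKDC array above every CDC array, and 19.7% every NK array above every CDC array. Itgal was 3.17-fold higher in IKDC than in CDC (1.66 ± 0.26 SE, limma adjusted p = 0.00987). It was 3.65-fold higher in NK than in CDC (1.87 ± 0.26 SE, limma adjusted p = 0.00483). The difference between IKDC and CDC was 1.48 among spleen arrays 1, 2.08 among spleen arrays 2 and 1.55 in lymph node. With spleen arrays alone, and so without the lymph node IKDC array, it was 1.78 (limma adjusted p = 0.0149). IKDC and NK differed by -0.20 ± 0.26 SE, with a 95% interval from -0.84 to 0.43.

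Itgam encodes CD11b, the alpha chain of the complement receptor Mac-1. Its level was 5.16 in lymph node and 5.51 and 7.61 in spleen IKDC, 7.49 in lymph node and 7.69 and 9.19 in spleen NK, and 5.91 in lymph node and 6.22 and 7.08 in spleen CDC. Spleen array 2 was the highest array of each cell type, all 3 NK arrays lay above all 3 CDC arrays, and spleen IKDC array 2 reached into the NK range. NK arrays lay wholly above CDC arrays for 19.7% of all genes tested. The lymph node IKDC array lay below 5.31, the level under which genes were not tested. Between IKDC and NK the difference was -2.10 ± 0.69 SE, or 4.30-fold lower in IKDC, which was the 6th lowest of the 10916 genes by size (limma unadjusted p = 0.021, adjusted p = 0.671). IKDC was lower than NK in all 3 matched pairs, by -2.18 among spleen arrays 1, -1.58 among spleen arrays 2 and -2.33 in lymph node. With the array number as a block the adjusted p was 0.0598.

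Between NK and CDC Itgam differed by 1.68 ± 0.69 SE, 3.21-fold (limma adjusted p = 0.160), and the pairs gave 1.47, 2.11 and 1.58. With the array number as a block the adjusted p was 0.0077, and without spleen IKDC array 1, which changes the estimate of the spread, it was 0.0479. Between IKDC and CDC the difference was -0.42 ± 0.69 SE (limma adjusted p = 0.751), and its sign was not the same in all pairs, being -0.71 and 0.53 in spleen and -0.75 in lymph node. The summed level of 7 genes of mature NK was 2916 in lymph node and 6779 and 8702 in spleen IKDC, 8880 in lymph node and 13270 and 20020 in spleen NK, and 623.8 to 898.3 in CDC. It was lower in IKDC than in NK in both organs, as Itgam was, but lowest in CDC, where Itgam was not. The summed level of 9 macrophage and monocyte markers was 5848 in lymph node and 2210 and 4828 in spleen IKDC, 3527 in lymph node and 1987 and 3497 in spleen NK, and 15810 in lymph node and 8301 and 9062 in spleen CDC. In each cell type it was higher on spleen array 2 than on spleen array 1, as Itgam was. It was highest in lymph node in each cell type, where Itgam was lowest. Of the 9 markers, 8 in IKDC, 7 in NK and 6 in CDC were higher on spleen array 2 than on array 1. The others, 1 in IKDC, 2 in NK and 3 in CDC, went the other way. One of these markers, Cd14, was at 5.64 and 7.67 in spleen IKDC, 5.99 and 8.63 in spleen NK and 7.08 and 8.28 in spleen CDC. Of the 7 genes of mature NK, 4 in IKDC, 7 in NK and 4 in CDC were higher on spleen array 2 than on array 1. The rest, 3 in IKDC, 0 in NK and 3 in CDC, were higher on array 1. Spleen NK array 2, where Itgam was highest, also had the highest sum of basophil and mast cell markers (2045). The part of any of these cells in the Itgam values was not tested.

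Itgax encodes CD11c, the partner of the beta2 chain in the complement receptor p150,95. Its level was 10.88 in lymph node and 11.03 and 11.24 in spleen IKDC, 8.19 in lymph node and 11.32 and 7.27 in spleen NK, and 11.39 in lymph node and 11.89 and 12.37 in spleen CDC. The 3 IKDC arrays were the tightest group, with 11.05 ± 0.18 (SD, n = 3), and they lay below all 3 CDC arrays, as did those of 14.5% of all genes tested. Spleen NK array 1 was above every IKDC array, while the other NK arrays were far below them. IKDC and CDC differed by -0.75 ± 1.00 SE, with a 95% interval from -3.16 to 1.66 (limma adjusted p = 0.683), although the pairs all ran the same way at -0.86, -1.12 and -0.51. NK and CDC differed by -3.02 ± 1.00 SE, 8.11-fold (limma adjusted p = 0.0911). That difference was -0.57 among spleen arrays 1, -5.10 among spleen arrays 2 and -3.21 in lymph node.

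The spread of Itgax came mainly from the spleen NK arrays, whose SD was 2.87, against 0.15 in spleen IKDC and 0.33 in spleen CDC. The NK minus CDC difference was -4.03 without spleen NK array 1 and -2.01 without spleen NK array 2. Either fit leaves 1 spleen NK array and drops the spread of that pair, so its p-value cannot test the difference. With all arrays the number block gave a limma adjusted p of 0.0431. IKDC minus NK was 2.27 ± 1.00 SE (95% interval -0.14 to 4.68, limma adjusted p = 0.869). It was 3.28 without spleen NK array 1 and 1.26 without spleen NK array 2. On spleen NK array 1 the summed dendritic cell markers were at 3577, against 685.3 on spleen NK array 2, and 7 of the 9 were higher on array 1. H2-Aa was at 10.89 against 6.62, Cd74 at 9.68 against 7.18 and H2-Ab1 at 9.32 against 8.03, while Flt3 was at 5.61 against 5.22 and Cd86 at 6.48 against 6.27. The part of other cells in the Itgax value of that array was not tested.

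**Figure D2:**
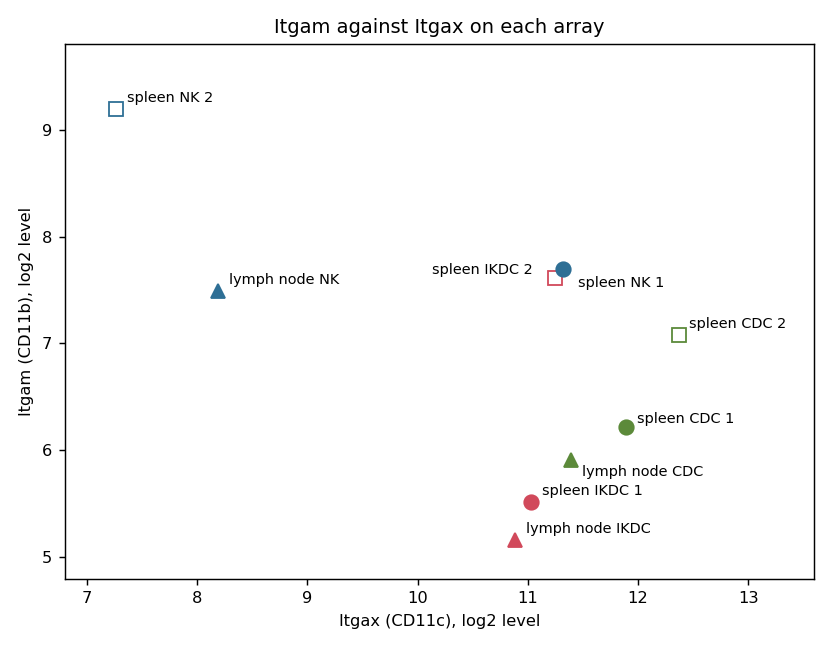
Itgam level against Itgax level on each of the 9 arrays, both as log2 normalized intensity, with 1 point per array. IKDC and CDC arrays lie between 10.88 and 12.37 on the Itgax axis, the lymph node NK and spleen NK 2 arrays lie at 8.19 and 7.27, and spleen NK 1 lies beside spleen IKDC 2.

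Itgam and Itgax are neighbours. By mean over both organs, Itgam was highest in NK (7.97) and Itgax was lowest in NK (8.74). With all 9 arrays and no block, neither gene passed a comparison of cell types, and with the block both passed only between NK and CDC. Spleen NK array 1 (Itgam 7.69, Itgax 11.32) and spleen IKDC array 2 (7.61, 11.24) had nearly the same levels of both genes. Whether the promoters bear on these levels was not tested. On mouse chromosome 7 of build GRCm38.p6, Itgam runs from 128062640 to 128118491 and Itgax from 128129526 to 128150657, with 11034 bases between them. Across the 9 arrays Pearson's r between the levels of both genes was -0.59. The sequences below are from RefSeq on the plus strand, 5′ to 3′, at chr7:128062390-128062689 for Itgam and chr7:128129300-128129599 for Itgax. Each runs from 250 bases before to 50 bases after a start in RefSeq's promoter table, and for Itgax that start lies slightly inside the span given above. Capitals mark GAGGAA, the purine-rich core bound by the myeloid factor PU.1, or its reverse complement TTCCTC, and TGTGGT, the core bound by RUNX factors, or its reverse complement ACCACA.
Itgam: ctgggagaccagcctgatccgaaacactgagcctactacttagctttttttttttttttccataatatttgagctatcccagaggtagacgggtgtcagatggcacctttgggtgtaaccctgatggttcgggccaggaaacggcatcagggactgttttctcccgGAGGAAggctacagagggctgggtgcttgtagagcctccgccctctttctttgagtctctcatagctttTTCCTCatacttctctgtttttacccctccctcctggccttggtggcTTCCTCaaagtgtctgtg
Itgax: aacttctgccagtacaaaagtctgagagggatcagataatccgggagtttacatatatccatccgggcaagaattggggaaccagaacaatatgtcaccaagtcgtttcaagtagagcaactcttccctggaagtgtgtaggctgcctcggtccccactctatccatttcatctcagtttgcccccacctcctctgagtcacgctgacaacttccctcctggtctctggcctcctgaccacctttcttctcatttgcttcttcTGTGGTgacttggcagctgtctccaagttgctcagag
The Itgam window held GAGGAA 3 times counting both strands and TGTGGT 0 times. The Itgax window held TGTGGT 1 time and GAGGAA 0 times. Of 32851 RefSeq promoters of the same length, 28.3% held GAGGAA and 16.8% held TGTGGT on either strand. Both are short motifs that many promoters hold, and a match is a stretch of letters, not a binding site. Of the 10 chains, 7 had a promoter entry, and among the other 5 GAGGAA was present for Itgav, Itgb1 and Itgb7 and TGTGGT for Itga4.

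Itgb2 encodes CD18, the beta chain that Itgal, Itgam and Itgax all need to reach the surface. Its level was 12.00 in lymph node and 12.04 and 12.49 in spleen IKDC, 12.18 in lymph node and 12.35 and 12.65 in spleen NK, and 11.81 in lymph node and 12.05 and 12.63 in spleen CDC. The 3 cell types overlapped and the range over all 9 arrays was 0.83, the smallest among the chains. IKDC minus CDC was 0.059 ± 0.24 SE (95% interval -0.52 to 0.64), and its sign turned with the scaling, at -0.45 on the values as deposited and -0.50 after a shift to a common 75th percentile. NK minus CDC was 0.26 ± 0.24 SE, with a 95% interval from -0.32 to 0.84. Over the 9 arrays the r of Itgb2 with its alpha chains was 0.41 for Itgal, 0.81 for Itgam and -0.25 for Itgax, a description over points that share array number and organ.

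Itga2 encodes CD49b, a collagen-binding chain that pairs with the beta1 chain. Its level was 6.41 in lymph node and 6.35 and 6.62 in spleen IKDC, 6.95 in lymph node and 7.43 and 7.18 in spleen NK, and 4.87 in lymph node and 5.34 and 4.71 in spleen CDC. The cell types formed 3 bands that did not overlap, with NK above IKDC and IKDC above CDC. Of all genes tested, 15.8% had all IKDC arrays above all CDC arrays, and 5.07% all IKDC arrays below all NK arrays. CDC averaged 4.95, under the filter level of 5.31, so folds against CDC are given as bounds from that level. Itga2 was at least 2.20-fold higher in IKDC than in CDC (fitted difference 1.495 ± 0.31 SE, limma adjusted p = 0.0238). It was at least 3.53-fold higher in NK than in CDC (fitted difference 2.18 ± 0.31 SE, limma adjusted p = 0.00474). IKDC minus NK was -0.68 ± 0.31 SE (95% interval -1.42 to 0.053, limma adjusted p = 0.870), with pairs of -1.08, -0.56 and -0.54.

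The call of Itga2 between IKDC and CDC was lost without spleen CDC array 2 (adjusted p = 0.0762), without spleen NK array 1 (adjusted p = 0.0559) and without spleen NK array 2 (adjusted p = 0.0546). The difference then was 1.34 in the first case and did not move in the other 2, which lost a degree of freedom. With spleen arrays alone it was 1.46 (limma adjusted p = 0.0486).

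Itgb1 encodes CD29, the beta chain of the matrix receptors. Its level was 8.97 in lymph node and 8.35 and 10.67 in spleen IKDC, 9.40 in lymph node and 9.02 and 9.73 in spleen NK, and 7.91 in lymph node and 8.18 and 9.36 in spleen CDC. Spleen IKDC array 2 was the highest of all arrays, and the cell types overlapped. IKDC minus CDC was 0.90 ± 0.68 SE (limma adjusted p = 0.451) and NK minus CDC was 1.05 ± 0.68 SE (limma adjusted p = 0.355). IKDC minus CDC was 0.32 without spleen IKDC array 2 and 1.48 without spleen IKDC array 1 (limma adjusted p = 0.660 and 0.0560). The 95% interval for IKDC minus NK ran from -1.78 to 1.48.

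Itga4 encodes CD49d, which pairs with beta1 to bind VCAM-1 on inflamed vessels and with beta7 to bind MAdCAM-1 in gut vessels. Its level was 11.21 in lymph node and 11.15 and 12.06 in spleen IKDC, 11.19 in lymph node and 11.74 and 11.88 in spleen NK, and 10.43 in lymph node and 11.06 and 11.36 in spleen CDC. CDC had the lowest array within each organ, with overlap between organs. NK minus CDC was 0.68 ± 0.28 SE (limma adjusted p = 0.165, and 0.0436 with the number block), with pairs of 0.68, 0.51 and 0.76. Without spleen IKDC array 1 or array 2, which changes the spread and not the difference, that adjusted p was 0.0385 and 0.0412. IKDC minus CDC was 0.59 ± 0.28 SE (limma adjusted p = 0.243). Without spleen IKDC array 1 it was 0.81 (limma adjusted p = 0.0325). Itga4 followed Itgb1 over the arrays with r = 0.86 and Itgb7 with r = 0.38.

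Itgb7 encodes the beta chain of the gut-homing and epithelium-binding integrins. Its level was 10.54 in lymph node and 10.08 and 10.68 in spleen IKDC, 10.87 in lymph node and 10.73 and 11.07 in spleen NK, and 10.63 in lymph node and 10.56 and 10.52 in spleen CDC. All 3 NK arrays were above all IKDC and CDC arrays by a small margin. NK arrays lay wholly above CDC arrays for 19.7% of all genes tested. NK minus CDC was 0.30 ± 0.24 SE and IKDC minus NK was -0.43 ± 0.24 SE (limma adjusted p = 0.458 and 0.921). Among all genes tested, 9.92% had IKDC and NK arrays that did not overlap, 5.07% with IKDC lower, and of the 10 chains Itgb7 and Itga2 did, both lower in IKDC.

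Itgae encodes CD103, whose ligand E-cadherin is made by epithelial cells, and lies on chromosome 11 from 73090505 to 73147449 (GRCm38.p6). Its level was 9.05 in lymph node and 6.35 and 6.63 in spleen IKDC, 10.82 in lymph node and 6.70 and 6.86 in spleen NK, and 11.04 in lymph node and 8.65 and 9.06 in spleen CDC. Within each cell type the lymph node array was far above both spleen arrays, and within each organ CDC was above NK and NK above IKDC on the probe set used. Arrays of the spleen pairs were close, with SDs of 0.20 in IKDC, 0.11 in NK and 0.29 in CDC. Lymph node cells averaged 10.30 and spleen cells 7.37. The difference was 2.93 ± 0.19 SE, 7.62-fold with a 95% interval of 2.46 to 3.40 on the log2 scale (limma adjusted p = 0.0062), and it was the 5th highest of the 10916 genes by size. Itgae was the 1 chain of 10 called between organs, where 0.376% of all genes were called in either direction and 0.101% as higher in lymph node.

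Taken by cell type, Itgae was 5.89-fold higher in lymph node than spleen IKDC (2.56 ± 0.34 SE, limma adjusted p = 0.0699). It was 16.5-fold higher in lymph node than spleen NK (4.04 ± 0.34 SE, limma adjusted p = 0.0674), and 4.57-fold higher in lymph node than spleen CDC (2.19 ± 0.34 SE, limma adjusted p = 0.0976). None of these passed the threshold with a lone lymph node array, and across all genes 0% were called in IKDC, 0% in NK and 0.0275% in CDC. At an unadjusted limma p under 0.05 the shares were 6.82% in IKDC (744 genes), 5.75% in NK (628 genes) and 12.7% in CDC (1386 genes). With the number block the adjusted p of Itgae was 0.0193 in IKDC, 0.0150 in NK and 0.0255 in CDC, where the block called 1.15%, 0.137% and 1.58% of all genes. The organ difference was 1.85 ± 0.48 SE larger in NK than in CDC (unadjusted p = 0.00706, limma adjusted p = 0.766), and 0% of genes were called for that difference.

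The organ difference of Itgae kept its size without any 1 spleen array, between 2.86 and 2.999. The call was lost without spleen CDC array 1 (adjusted p = 0.0628), spleen CDC array 2 (0.0589), spleen NK array 1 (0.0620) or spleen NK array 2 (0.0758). The 8 summed T cell markers were at 1729 in lymph node and 526.3 and 894.6 in spleen IKDC, 1742 in lymph node and 372.7 and 410.9 in spleen NK, and 453.8 in lymph node and 620.2 and 1157 in spleen CDC. The sum was higher in lymph node for IKDC and NK and lower for CDC. In IKDC, Cd4 was at 9.30 in lymph node and 4.18 and 5.09 in spleen, and Cd8b1 at 8.79 and at 3.33 and 4.24. In the same order Cd5 was at 5.85, 5.46 and 5.24, Cd6 at 3.16, 3.20 and 5.01, and Trat1 at 5.57, 6.07 and 5.81. The lymph node IKDC array also had the plasmacytoid marker sum of 14000. In CDC the T cell sum was mostly Cd4, which dendritic cells also carry, at 8.02 in lymph node and 8.81 and 9.90 in spleen. The CD3 chain genes Cd3d, Cd3e and Cd3g were at 3.63, 4.88 and 5.04 in lymph node CDC, against 3.28 to 4.41 in spleen CDC. All of these CDC values lay under the filter level. In lymph node IKDC they were at 8.07, 4.19 and 8.27. Spleen IKDC had 7.57, 5.58 and 7.58 on array 1 and 7.58, 4.79 and 9.10 on array 2. In lymph node NK they were at 8.81, 8.15 and 9.31. Spleen NK had 7.24, 5.04 and 7.06 on array 1 and 6.66, 5.85 and 7.49 on array 2. All of them were higher in lymph node NK than on both spleen NK arrays, while in IKDC only Cd3d was. On spleen NK and IKDC arrays, where Cd3d and Cd3g were at 6.66 to 9.10, Cd5 and Cd6 were at 3.11 to 5.46. In lymph node NK Cd5 and Cd6 were at 7.38 and 6.01. The summed markers of the CD8 subset of dendritic cells were 15890 in lymph node CDC and 13010 and 12050 in spleen CDC. Their mean log2 level, less set by the highest genes, was 10.39 in lymph node CDC and 9.66 and 9.72 in spleen CDC. Cd8a was at 8.65 in lymph node CDC and 7.81 and 7.43 in spleen CDC, and Irf8 at 12.57 and at 12.42 and 12.15. The summed markers of the CD11b subset went the other way, with 2265 in lymph node CDC and 2956 and 5620 in spleen CDC. The part of these cells in the Itgae levels was not tested. Against spleen arrays 2 alone, which carry female transcripts like the lymph node arrays, Itgae was higher in lymph node by 2.42 in IKDC, 3.96 in NK and 1.99 in CDC. Each organ comparison of IKDC includes the lymph node array with the high plasmacytoid marker sum, and the NK and CDC comparisons do not.

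**Figure D3:**
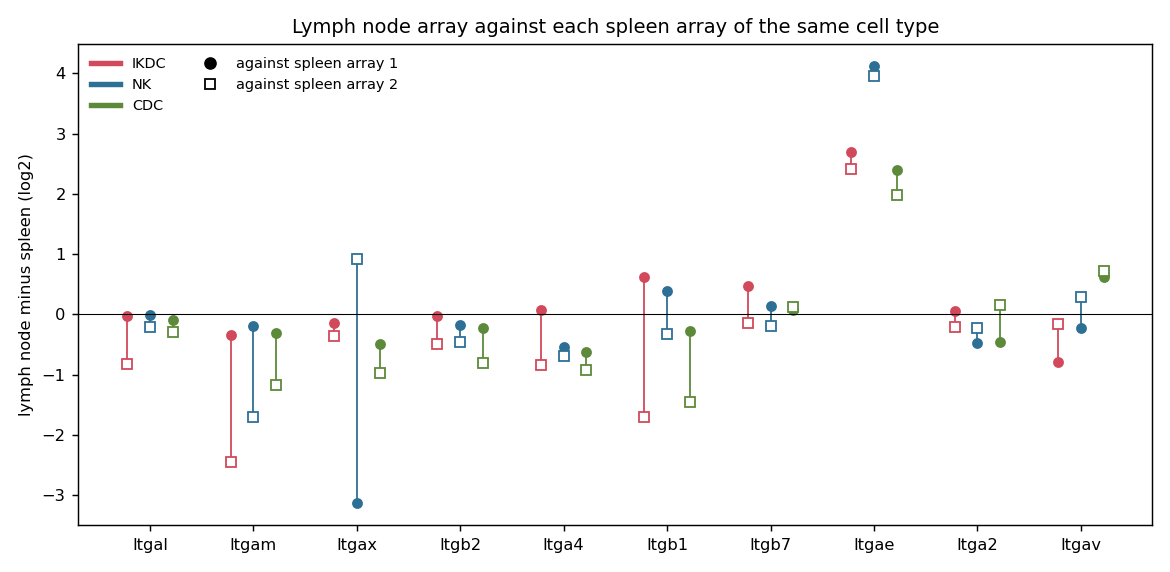
Lymph node level minus the level of each spleen array of the same cell type, in log2 units, for each integrin chain, with a vertical line joining the values against spleen arrays 1 and 2. Itgae lies between 1.99 and 4.12 for all 3 cell types. Of the 10 chains 7 have a negative mean difference, Itgal, Itgam and Itgb2 lie below 0 throughout, and the lowest value is -3.13 (Itgax in NK against spleen array 1).

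Between cell types Itgae was 4.54-fold lower in IKDC than in CDC (-2.18 ± 0.24 SE, limma adjusted p = 0.00262), and the pairs gave -2.30, -2.43 and -2.00. In spleen alone, without the lymph node IKDC array, the difference was -2.37 (limma adjusted p = 0.00439). NK minus CDC was -1.15 ± 0.24 SE, 2.22-fold lower in NK (limma adjusted p = 0.0208), but the pairs were unequal, at -1.95 and -2.20 in spleen and -0.22 in lymph node. With spleen arrays alone that difference was -2.07 (limma adjusted p = 0.00561). The call between NK and CDC was lost without spleen CDC array 2 (-1.04, adjusted p = 0.0780), without spleen NK array 1 (-1.11, adjusted p = 0.0793) and without spleen NK array 2 (-1.19, adjusted p = 0.0687). IKDC minus NK was -1.03 ± 0.24 SE (unadjusted p = 0.0041, limma adjusted p = 0.371), of which the lymph node pair gave -1.78 and the spleen pairs -0.35 and -0.23. The r of Itgae with its partner Itgb7 over the arrays was 0.17.

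Itgav encodes CD51, the alpha chain of receptors for vitronectin and latent transforming growth factor beta. Its level was 9.74 in lymph node and 10.53 and 9.90 in spleen IKDC, 9.86 in lymph node and 10.09 and 9.58 in spleen NK, and 10.40 in lymph node and 9.79 and 9.68 in spleen CDC. The range over the arrays was 0.95, and the cell types overlapped. IKDC minus CDC was -0.091 ± 0.27 SE (95% interval -0.74 to 0.56), while the pairs were 0.74 and 0.22 in spleen and -0.66 in lymph node. In lymph node against spleen, the level was lower against both spleen arrays in IKDC (-0.79 and -0.16) and higher against both in CDC (0.61 and 0.72). That difference between the cell types was tested and did not pass (-1.14 ± 0.54 SE, unadjusted p = 0.0748, limma adjusted p = 0.923). For the 3 such contrasts between cell types limma called 0 genes, and at an unadjusted p under 0.05 there were 5.63% for IKDC and CDC, 5.31% for NK and CDC and 2.77% for IKDC and NK (615, 580 and 302 genes).

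Counted together, 2 of the 10 chains rose and 1 fell in IKDC against CDC, where 13.3% of all genes were called, 6.77% as higher and 6.49% as lower. The same numbers, 2 higher and 1 lower, held for NK against CDC, where 17.7% of all genes were called, 8.9% as higher and 8.79% as lower. With the number block 6 chains passed in NK against CDC, where it called 27.5% of all genes. Both comparisons use the same CDC arrays. For the 10 chains the median difference was -0.016 in IKDC minus CDC and 0.49 in NK minus CDC, against 0.049 and 0.036 over all genes tested. Between IKDC and NK 0 chains were called by limma, against 0.00916% of all genes, which is 1 gene. At an unadjusted p under 0.05 there were 2 chains, Itgam and Itgae, and 654 genes, or 5.99%. The number block called 39 genes there, or 0.357%, and 0 of the chains. The other 9 chains did not pass between organs, with differences from -1.03 for Itgam to 0.076 for Itgb7, and Itga4 had the smallest p of these (-0.60 ± 0.23 SE, unadjusted p = 0.0391, limma adjusted p = 0.276).

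**Figure D4:**
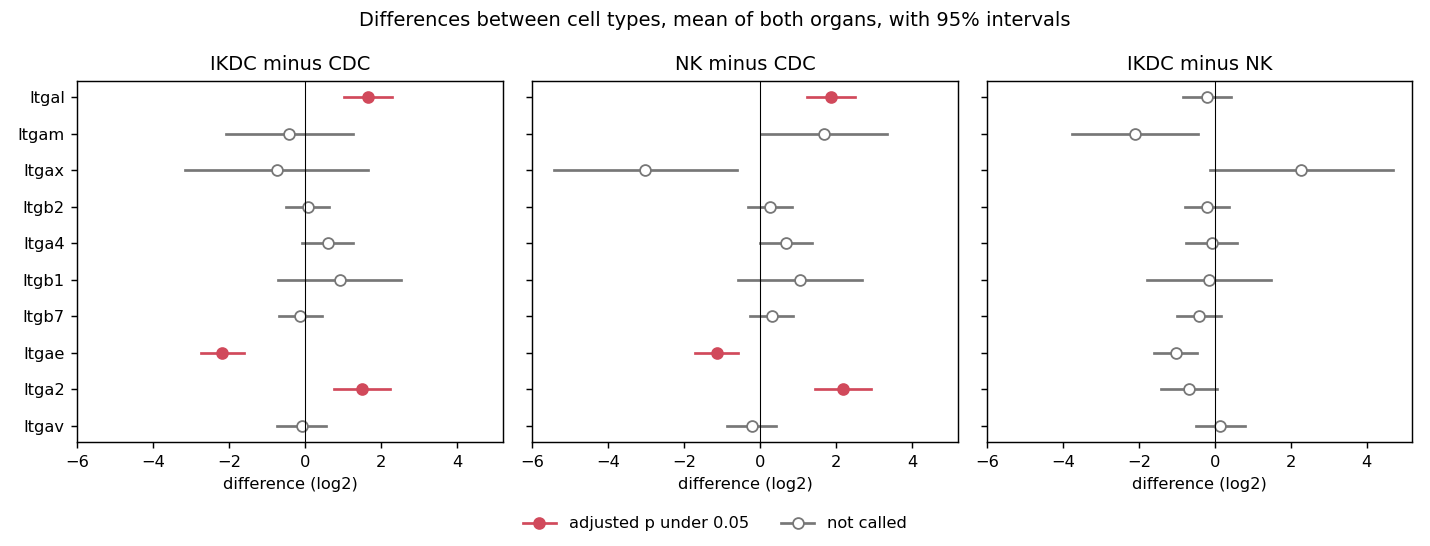
Differences between cell types for the 10 integrin chains, averaged over lymph node and spleen, in log2 units with 95% intervals from limma; filled red points passed an adjusted p of 0.05. Itgal (1.66 and 1.87), Itga2 (1.495 and 2.18) and Itgae (-2.18 and -1.15) passed in IKDC minus CDC and in NK minus CDC, and no chain passed in IKDC minus NK.

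Where a gene had several probe sets, the one with the highest mean was used, and the others were read beside it. The second probe set of Itgae was at 7.40 in lymph node and 5.15 and 5.68 in spleen IKDC, 8.72 in lymph node and 5.80 and 6.396 in spleen NK, and 8.02 in lymph node and 7.38 and 8.04 in spleen CDC. It had the order of the first in IKDC and NK, but its lymph node CDC value did not exceed that of spleen CDC array 2. That value also lay below the one of lymph node NK, unlike on the first probe set. With all 18716 probe sets above the filter level tested alone, this probe set gave 1.64 for lymph node minus spleen (limma adjusted p = 0.0691). It gave -1.46 for IKDC minus CDC (limma adjusted p = 0.0377) and -0.46 for NK minus CDC (limma adjusted p = 0.431).

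The second Itgal probe set ran with the first over the arrays (r = 0.905) and had the same direction with smaller differences that did not pass, at 1.06 for IKDC minus CDC (limma adjusted p = 0.155) and 1.15 for NK minus CDC (limma adjusted p = 0.106). For Itgav the other 4 probe sets had r of -0.13 to 0.017 with the one used, and 3 of them lay below the filter level. The remaining 1 gave 0.61 for IKDC minus CDC and -1.23 for lymph node minus spleen (limma adjusted p = 0.407 and 0.149). The other 4 probe sets of Itga4 passed the filter, with r of 0.475 to 0.937. They gave 0.31 to 1.09 for NK minus CDC and did not pass (limma adjusted p = 0.0636 to 0.804). Itgb1 had 6 probe sets, of which the next in level had r = 0.963 with the one used. Itgam, Itgax, Itgb2, Itgb7 and Itga2 each rest on 1 probe set. Both calls of Itgal against CDC, the call of Itgae between NK and CDC and its call between organs thus rest on 1 of the 2 probe sets of each gene.

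**Figure D5:**
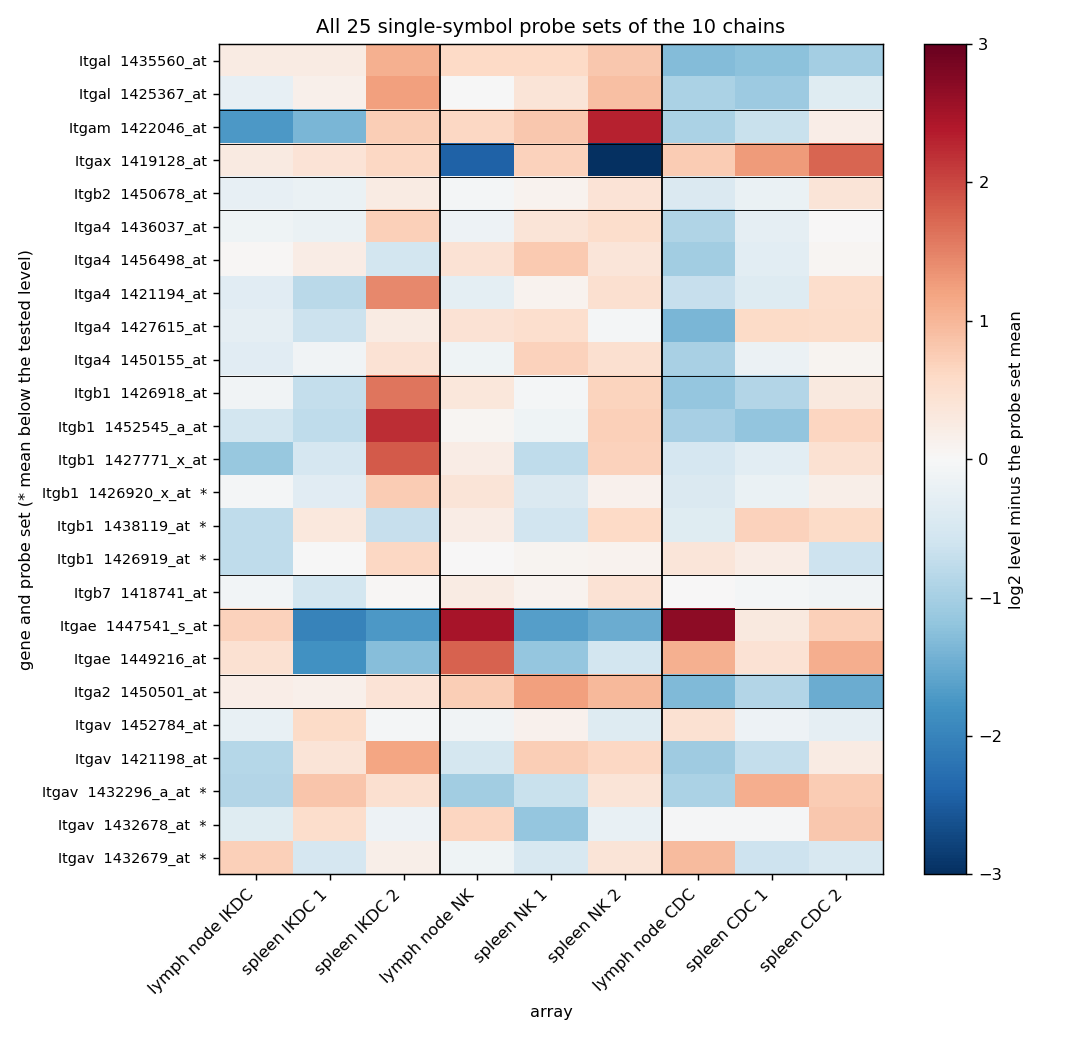
Level of each of the 25 single-symbol probe sets of the 10 chains on the 9 arrays, as log2 level minus the mean of that probe set; the first line of each gene is the probe set used, and an asterisk marks those below the tested level. Of the 25, 19 lay at or above that level, both Itgae probe sets are highest on lymph node arrays in IKDC and NK, and the Itgal probe sets are lowest on CDC arrays.

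Other integrin chains were taken from a list of 17, of which 15 were on the array and 8 passed the filter. In IKDC against CDC 1 was higher and 1 lower, with a median difference of 0.15, where 6.77% of all genes were called higher and 6.49% lower. In NK against CDC 2 were higher and 1 lower, with a median of 0.45, where 8.9% of all genes were called higher and 8.79% lower, and 0 were called in IKDC against NK or in lymph node against spleen. Itga8, a beta1 partner, was at 4.68 in lymph node and 5.69 and 4.36 in spleen IKDC, 4.33 in lymph node and 4.35 and 3.52 in spleen NK, and 9.30 in lymph node and 8.13 and 7.79 in spleen CDC. It was thus high on the 3 CDC arrays and near or below the filter level elsewhere. It was at least 10-fold lower in IKDC than in CDC (limma adjusted p = 0.00409) and at least 10-fold lower in NK than in CDC (limma adjusted p = 0.00153). Itgb3, the beta partner of Itgav in the vitronectin receptor, was 3.14-fold higher in IKDC than in CDC (limma adjusted p = 0.0117) and 4.08-fold higher in NK than in CDC (limma adjusted p = 0.00412). Its CDC arrays were unequal, at 4.85 in lymph node and 6.55 and 6.63 in spleen, and spleen NK array 1 at 6.67 lay close to the spleen CDC values. Itga6, a laminin-binding chain, was 2.77-fold higher in NK than in CDC (limma adjusted p = 0.0325).

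Among 12 tested genes of integrin ligands, 2 were higher and 1 lower in IKDC than in CDC, and 2 were higher in NK than in CDC, against 13.3% and 17.7% of all genes called in either direction. Icam2, a ligand of CD11a found on leukocytes and vessels, was 7.27-fold higher in IKDC than in CDC (limma adjusted p = 0.00237) and 10.6-fold higher in NK than in CDC (limma adjusted p = 0.000911). Thy1, a surface glycoprotein of mouse lymphocytes, was 13.5-fold higher in IKDC and 20.7-fold higher in NK than in CDC (limma adjusted p = 0.0293 and 0.0139). F11r, a junctional adhesion molecule that CD11a binds, was at least 3.46-fold lower in IKDC than in CDC (limma adjusted p = 0.0408). The median difference of the ligand genes was -0.040 in IKDC and 0.15 in NK against CDC.

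Among 22 tested genes that regulate the switch of integrins to the ligand-binding state, activators and inhibitors alike, 5 were higher and 1 lower in IKDC than in CDC, and 8 were higher and 1 lower in NK than in CDC, against 13.3% and 17.7% of all genes called. Their median differences were 0.40 and 0.51, against 0.049 and 0.036 over all genes. Skap1, an adaptor that couples antigen receptors to CD11a, was 18.3-fold higher in IKDC than in CDC and 18.3-fold higher in NK than in CDC (limma adjusted p = 0.000976 and 0.00056). Its relative Skap2 went the other way, 3.12-fold lower in IKDC and 5.16-fold lower in NK. The exchange factors Rasgrp1 and Rasgrp2 were 9.90-fold and 4.60-fold higher in IKDC, and 7.53-fold and 5.70-fold higher in NK. The genes called higher include inhibitors. Rap1gap2, which turns the GTPase Rap1 off, was 4.62-fold higher in IKDC and 7.97-fold higher in NK. Sipa1, with the same action on Rap1, was 2.23-fold and 2.26-fold higher.

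Of 22 tested genes of the signalling complex at integrin tails, 2 were higher and 4 lower in IKDC than in CDC, and 2 were higher and 6 lower in NK than in CDC, again beside 13.3% and 17.7% of all genes called. The focal adhesion kinase relative Ptk2b was 3.35-fold higher in IKDC and 3.29-fold higher in NK, and Zyx, a cytoskeletal adaptor, 2.31-fold and 2.72-fold. Tns3, a tensin that links integrin tails to actin, was 4.49-fold lower in IKDC and 15.1-fold lower in NK, and the tetraspanin Cd81 was 7.30-fold and 8.77-fold lower. Actn1, an actin crosslinker, was 4.17-fold and 5.74-fold lower, Tns1 was 2.79-fold lower in IKDC, and the kinase Fgr was 5.96-fold lower in NK. In all 3 of these lists 0 genes were called in IKDC against NK or in lymph node against spleen.

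The genes whose levels ran most like each chain were found by Pearson's r over the 9 arrays, which share array number and organ, among the 10916 genes tested. For Itgax they were Nedd4l (r = 0.944), Ccdc6 (0.936) and the class II chain H2-Aa (0.928), and for Itgam Nqo2 (0.948), Tes (0.945) and Cym (0.937). Those of Itgae were Irgm1 (0.964), Zfp62 (0.962) and Syne1 (0.961). Those of Itgal were D16Ertd472e (0.992), Gpr160 (0.991) and Itpr2 (0.989), and those of Itga2 were Lgals9 (0.982), Tango2 (0.981) and Arap3 (0.981). Among the chains themselves the highest r was 0.92, between Itgal and Itga2, both low in CDC. With 9 arrays in 3 cell types, many genes reach such values.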

How the data were processed

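Per the labels, cells were sorted, RNA was extracted with TRIzol and RNeasy kits, and 6 µg of it gave the biotin-labelled cRNA. The values are the authors' deposited linear signal intensity per probe set (45101 probe sets, 0 missing). Their software was not given in the sources used here. In each array the mean between percentiles 2 and 98 was 149.9477 to 149.9596, so the arrays had been scaled, and the median intensity was 23.4 to 41.3. The number of arrays limits the precision.

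An offset of 6.49, the 20th percentile of all values, was added before log2, and arrays were quantile normalized. Control probe sets (64) and probe sets with several symbols (932) or none (9160) were left out. Each gene took its probe set with the highest mean, and genes whose mean reached the 40th percentile (5.31) were tested. Tests used limma 3.58.1 in R 4.3.3 (eBayes with a trend, two-sided), with 6 groups of organ and cell type, 3 residual and 3.44 prior degrees of freedom. The lone lymph node arrays were assumed to vary like the spleen pairs. A cell type difference is the mean of the spleen and lymph node differences, and an organ difference is the mean over the cell types. Where the lower group averaged under 5.31, the fold is a bound against that level. The script was tested on simulated data. Python 3.11.15, pandas 2.3.3 and matplotlib 3.10.9 were also used.

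All 10 chains are named, with up to 4 called genes per direction, list and comparison, every called other chain, and the 3 genes most like each chain. The members and lists were chosen with earlier results of these data known. Nothing in the labels says that spleen array numbers pair the samples, so the number, which also separates the sexes in spleen, entered as a block only as an alternative, and block values stand beside results they change. Further settings tried were the values as deposited, a 75th percentile shift, offsets of 1 and 50, no filter and a 60th percentile filter, the mean of probe sets, each probe set alone, other spread settings, an additive model, the spleen arrays by themselves, and every spleen array left out once.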

Additional observations from a re-analysis of the deposited data

How the results depend on the processing

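Of 793 alternative values for the chains, 732 kept their direction and side of the threshold, 11 lost a call, 23 gained one and 27 changed sign. Sign changes were in 11 of 43 results, none of them called, and the cause was not tested. Itgal in both comparisons with CDC, Itga2 in NK minus CDC and Itgae in IKDC minus CDC kept their calls in every alternative run on 1 value per gene. With every probe set tested alone, the second probe set of Itgal did not pass against CDC (1.06 and 1.15, limma adjusted p = 0.155 and 0.106 for IKDC and NK), and that of Itgae did not pass in NK minus CDC (-0.46, adjusted p = 0.431) or between organs (1.64, adjusted p = 0.0691). The count of called chains in IKDC minus CDC stayed at 2 to 4, and in IKDC minus NK at 0.

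With the array number as a replicate block, 6 chains were called in NK minus CDC (4 higher, 2 lower), and Itgae gave 1 call each in lymph node minus spleen within CDC, NK and IKDC. With lymph node arrays counted with spleen arrays 2 the calls between organs were 3, the added ones being Itgam (-1.77, adjusted p = 0.0297) and Itgb2 (-0.59, adjusted p = 0.0495). The block changed no other call. Deviations of arrays of the same number ran together over genes, with r of 0.485 for IKDC and NK, 0.529 for IKDC and CDC and 0.412 for NK and CDC, a hint from the data and not the design, and same-numbered spleen arrays also shared the sex of the mice. A 60th percentile filter gave 1 call each for lymph node minus spleen in NK and IKDC, and left Itgam and Itga2 untested. Leaving out each spleen array gave 0 to 1 called chains between organs and 2 to 5 in NK minus CDC. Lymph node arrays are lone, and were not left out in turn.

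On values as deposited the sign turned for Itgb2 in IKDC minus CDC (-0.45) and, in lymph node minus spleen, for Itgb7 (-0.014), Itga2 (0.035) and Itgav (-0.0050). After the 75th percentile shift these were -0.50 for Itgb2, -0.12 for Itgb7 and -0.11 for Itgav. With the mean of probe sets Itgav was 0.047 in IKDC minus CDC and -0.34 in lymph node minus spleen, and it was 0.099 in IKDC minus CDC in the additive model. With spleen arrays alone Itgb2 was -0.074 and Itgav 0.48 in IKDC minus CDC, Itgav 0.095 in NK minus CDC and Itgb1 0.14 in IKDC minus NK. Itgb7 in lymph node minus spleen was -0.074 with lymph node arrays counted with spleen arrays 2. Without 1 spleen array, IKDC minus CDC ranged from -0.087 to 0.20 for Itgb2, -0.94 to 0.11 for Itgam, -0.28 to 0.022 for Itgb7 and -0.25 to 0.066 for Itgav. IKDC minus NK ranged from -0.32 to 0.14 for Itga4, -0.73 to 0.43 for Itgb1 and -0.024 to 0.29 for Itgav, and lymph node minus spleen from -0.025 to 0.18 for Itgb7 and -0.032 to 0.18 for Itgav.

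Over all genes, calls in IKDC minus CDC were 1447, with 740 to 2006 when a spleen array was left out and 1045 to 2504 otherwise. Those in NK minus CDC were 1931, with 1126 to 2558 and 1425 to 2997. Those in IKDC minus NK were 1, with 0 to 41 and 0 to 39, and those in lymph node minus spleen were 41, with 0 to 150 and 13 to 623.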
